A study of Mus musculus with 4 samples.

Results

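The genes described are 10 surface or membrane molecules of thymocytes: the coreceptors Cd4, Cd8a and Cd8b1, the signalling molecules Cd2, Cd5, Cd6, Cd27 and Cd69, the tetraspanin gene Cd53, and the aquaporin gene Aqp11. They were chosen by name, and each was found once among the 33114 named genes of the files. RNA-seq libraries came from flow-sorted thymocytes of Rag1-/- mice on the NOD strain, at 6.5 and at 4 weeks of age, and on the C57BL/6 (B6) strain, at 7 and at 4 weeks of age, with 1 library for each. All 4 groups thus lack Rag1, and none is a wild type. The study concerns early T-cell checkpoint failure and the start of leukaemia in Rag1-deficient NOD mice. The labels do not say which surface markers the sort used, or whether a library came from 1 mouse or a pool.

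Thymocytes begin as double negative cells, without CD4 and CD8. At beta-selection, a rearranged T-cell receptor beta chain pairs with the pre-T alpha chain, and the signal of this pre-T-cell receptor drives proliferation, the loss of the interleukin-2 receptor alpha chain and the gain of CD2, CD5, CD27 and then CD8 and CD4. The CD4 and CD8 tails bind the kinase Lck and bring it to the receptor, while CD5 dampens receptor signals. The RAG1 protein is needed to assemble the beta chain gene, so thymocytes without it are held before this checkpoint.

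The recovered depth was 24080000 reads for NOD week 6.5, 17280000 for NOD week 4, 21220000 for B6 week 7 and 17040000 for B6 week 4. The libraries had a double negative profile, with Il2ra, the interleukin-2 receptor alpha chain, at 531.1, 491.9, 422.4 and 460.8 RPKM in the same order. RPKM scales the reads of a gene to its length and to the depth of the library, so that levels of different genes can be compared per length. Among genes at an RPKM of at least 5, 99.8% had some shared reads (reads that map to more than 1 place) in NOD week 6.5, against 41.2%, 43.4% and 41.0% in NOD week 4, B6 week 7 and B6 week 4. The median share was 3.0% in NOD week 6.5 and 0.0% in each of the other 3 libraries. NOD week 6.5 thus stood apart in this measure, which also touched the members: their shared share there was 0% to 4% except for Cd8a. Whether this library was processed differently from the others was not tested, and it enters every ratio of NOD week 6.5.

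The order of the highest members by RPKM was the same in every library, and that of the lower members varied. Aqp11 was the highest member in all 4, followed by Cd27, Cd53 and Cd6. In NOD week 6.5 the order went on with Cd2, Cd5 and Cd4, whose 95% counting intervals (2.79 to 4.22, 2.83 to 3.86 and 2.41 to 3.18 RPKM) overlap, and then with Cd69, Cd8b1 and Cd8a. In B6 week 7, Cd2 was the lowest of the 10. Of the 10 members, 7 were highest in NOD week 6.5: Cd4, Cd8a, Cd8b1, Cd2, Cd5, Cd6 and Cd53. Among all 22836 genes with RPKM above 0 in some library this held for 21.1%, and since the members were chosen with these results known the count is a description.

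**Figure D1:**
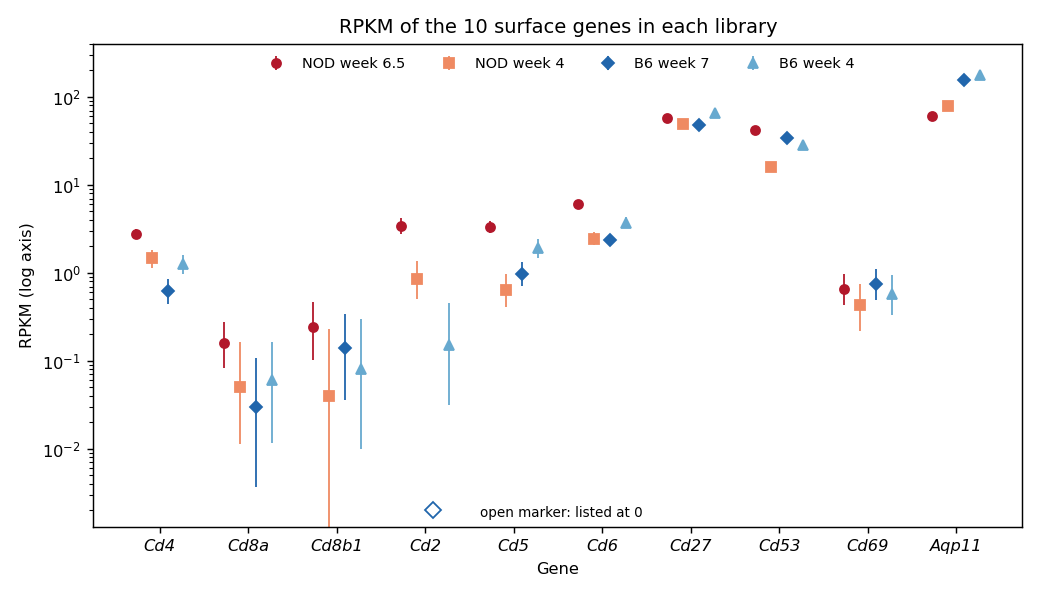
RPKM (log axis) of each of the 10 genes in the 4 libraries, with 95% Poisson counting intervals as bars. Cd8a and Cd8b1 lie below 0.3 in every library, Cd27, Cd53 and Aqp11 lie above 16, and Cd2 is listed at 0 in B6 week 7.

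The coreceptors were low in all 4 libraries. Cd4, the class II coreceptor, was at 2.78 RPKM in NOD week 6.5, 1.46 in NOD week 4, 0.63 in B6 week 7 and 1.25 in B6 week 4, which correspond to 207, 78, 41 and 66 reads. Both NOD values were thus above both B6 values, as for 25.3% of the 12413 genes tested between the strains. Between NOD week 4 and B6 week 4 the ratio was 1.17 (counting interval 0.829 to 1.64), and a difference was not detectable at this depth. The highest value was that of NOD week 6.5. Even there Cd4 lay near the middle of the genes detected in that library, at percentile 51.8, while Cd27 lay at percentile 96.0. In RNA of bulk samples, a small number of cells with much Cd4 RNA and many cells with little of it cannot be told apart.

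Cd8a and Cd8b1, the chains of the class I coreceptor, were near the limit of detection. Cd8a was at 0.16 RPKM in NOD week 6.5, 0.05 in NOD week 4, 0.03 in B6 week 7 and 0.06 in B6 week 4, from 12, 3, 2 and 3 reads. The shared share of these reads was 42%, 68%, 100% and 100%, so 7 reads with a single place remained in NOD week 6.5, 1 in NOD week 4 and 0 in each B6 library. Cd8a RNA was therefore not detectable in B6 from reads with a single place, where 3 reads would be 0.0452 RPKM in B6 week 7 and 0.0562 in B6 week 4. Cd8b1, the immediate neighbour of Cd8a on chromosome 6, had no shared reads. It was at 0.24, 0.04, 0.14 and 0.08 RPKM in NOD week 6.5, NOD week 4, B6 week 7 and B6 week 4, from 8, 1, 4 and 2 reads. Its counting intervals overlap between all libraries (0.101 to 0.462 in NOD week 6.5 and 0.00103 to 0.228 in NOD week 4), and a difference was not detectable at this depth.

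**Figure D2:**
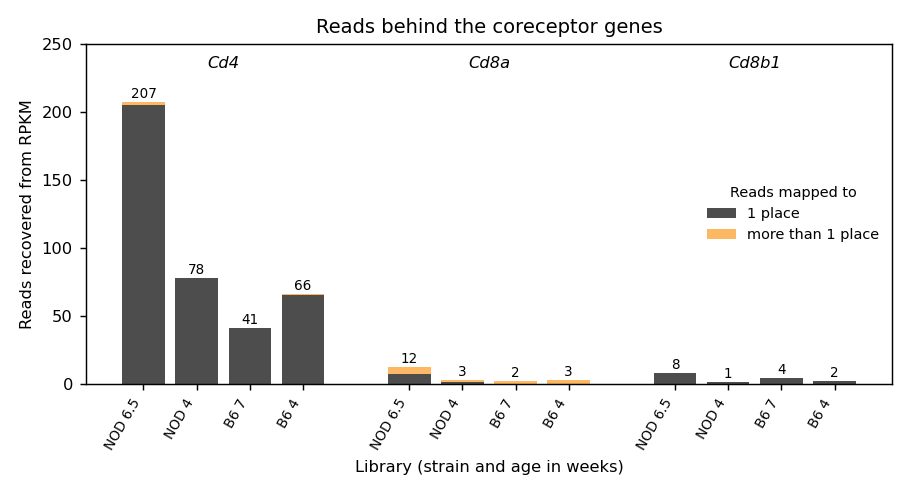
Reads of Cd4, Cd8a and Cd8b1 recovered from RPKM in each library (strain and age in weeks), split into reads that map to 1 place and reads that map to more than 1 place. Cd4 has 207 reads in NOD week 6.5 and 41 to 78 in the other libraries, while Cd8a and Cd8b1 have at most 12.

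The comparison of NOD week 6.5 with NOD week 4 asks which of these genes differ between the ages in the strain that goes on to leukaemia. Cd2, Cd5, Cd6 and Cd53 were higher at week 6.5 by more than 2-fold, Cd4 was 1.90-fold higher, Cd27 differed little and Aqp11 was lower. The comparison has 1 library per group and no replicate check, so it compares libraries, and its intervals cover counting error only. A gene was eligible in a pair when its RPKM reached 5 in at least 1 of the pair's libraries, and was called 2-fold apart at a log2 ratio of RPKM + 1 of at least 1 in size. By that rule 4 members were eligible and 2 of them, Cd6 and Cd53, were 2-fold higher, with 0 lower. Among all 8646 eligible genes 0.682% were 2-fold higher and 0.139% lower, and the median log2 ratio was -0.06. With the minimum lowered to an RPKM of 1, Cd2 and Cd5 passed too: 4 of 7 members were then 2-fold higher, where 0.716% of 12565 genes were. Cd2 and Cd5 reach an RPKM of 1, and Cd6 an RPKM of 5, through NOD week 6.5 alone, the library where they are high, so these counts depend on the minimum and are given as a description.

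Cd5 and Cd6 are scavenger receptor cysteine-rich proteins encoded by neighbouring genes on chromosome 19, with no protein-coding gene between them. Cd5 was at 3.31 RPKM in NOD week 6.5, 0.64 in NOD week 4, 0.98 in B6 week 7 and 1.90 in B6 week 4. NOD week 4 was the lowest of the libraries and NOD week 6.5 the highest, so the B6 values lay between the NOD values. The ratio of NOD week 6.5 to NOD week 4 was 5.17 (95% interval 3.32 to 8.35, from 165 and 23 reads), or 1.39 as a log2 ratio of RPKM + 1. Cd6, a receptor for the adhesion molecule ALCAM, was at 6.04 RPKM in NOD week 6.5, 2.46 in NOD week 4, 2.39 in B6 week 7 and 3.72 in B6 week 4. Its ratio between the NOD libraries was 2.46 (2.01 to 3.01), a log2 ratio of RPKM + 1 of 1.02. That value lies just past the 2-fold threshold, and counting only reads with a single place left 1 member, Cd53, 2-fold higher.

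Cd2, an adhesion molecule that binds CD48 in mice, was at 3.45 RPKM in NOD week 6.5, 0.86 in NOD week 4, listed at 0 in B6 week 7 and 0.15 in B6 week 4. These values rest on 95, 17, 0 and 3 reads, none of them shared. Cd2 was thus present in the NOD libraries and at or near the limit of detection in the B6 libraries, where 3 reads correspond to 0.124 RPKM in B6 week 7 and 0.154 in B6 week 4. The ratio of NOD week 6.5 to NOD week 4 was 4.01 (2.38 to 7.17), and that of NOD week 4 to B6 week 4 was 5.73 (1.62 to 29.8). Cd48, which encodes the partner of CD2, was expressed in every library, at 43.2, 31.0, 63.0 and 60.8 RPKM in NOD week 6.5, NOD week 4, B6 week 7 and B6 week 4.

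Cd53 encodes a tetraspanin of leukocyte membranes. It was at 41.7 RPKM in NOD week 6.5, 16.2 in NOD week 4, 34.1 in B6 week 7 and 28.1 in B6 week 4. As for Cd5, NOD week 4 was the lowest library and NOD week 6.5 the highest. The ratio between the NOD libraries was 2.58 (2.32 to 2.86, from 1640 and 457 reads). NOD week 4 was also lower than B6 week 4 (ratio 0.575, 0.512 to 0.647), while NOD week 6.5 was 1.22-fold (1.14 to 1.32) of B6 week 7. Of 8 other tetraspanin genes, 5 were eligible in this comparison and 0 were 2-fold apart, with a median log2 ratio of -0.04. Of those below the minimum, Tspan32 was at 1.25 RPKM in NOD week 6.5 and 0.19 in NOD week 4. Cd81 was at 4.16 and 2.37, and Cd63 was lower in NOD week 6.5, at 0.16 and 0.28. Cd37 was at 41.7 RPKM in NOD week 6.5 and 41.4 in NOD week 4, and Cd82 at 121.9 and 117.1.

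The promoters of Cd5 and Cd53 are shown because these genes had the same order of extremes over the libraries, and that of Aqp11 because it was the member called between the strains. Promoter sequences were found in a RefSeq table for 5 of the 10 members, on build GRCm38.p6, which is not the mm9 build of the files. Each sequence is the 250 bases before the annotated start, 5′ to 3′ on the gene's strand. All 3 lie on the minus strand, at chr19:10738975-10739224 for Cd5, chr3:106790150-106790399 for Cd53 and chr7:97738248-97738497 for Aqp11. Capitals in Cd5 and Cd53 mark motifs found on either strand: the letters CAGGTG are the E-box form preferred by E proteins, the letters TGTGGT are a RUNX motif, and the letters AGGAAG are an ETS motif. In Aqp11, which holds none of them, capitals mark CG dinucleotides. A motif of GATA factors, spelled AGATAA, was searched on both strands too and is in none of the 3.
Cd5: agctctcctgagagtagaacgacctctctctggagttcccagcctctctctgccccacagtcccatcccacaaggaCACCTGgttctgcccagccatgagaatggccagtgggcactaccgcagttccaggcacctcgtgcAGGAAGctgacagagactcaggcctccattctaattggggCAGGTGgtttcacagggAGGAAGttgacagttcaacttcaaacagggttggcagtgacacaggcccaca
Cd53: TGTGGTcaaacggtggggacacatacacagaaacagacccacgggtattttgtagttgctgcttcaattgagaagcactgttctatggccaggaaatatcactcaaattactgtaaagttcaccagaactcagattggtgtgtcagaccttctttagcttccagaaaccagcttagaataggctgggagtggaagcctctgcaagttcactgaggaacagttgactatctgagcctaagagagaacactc
Aqp11: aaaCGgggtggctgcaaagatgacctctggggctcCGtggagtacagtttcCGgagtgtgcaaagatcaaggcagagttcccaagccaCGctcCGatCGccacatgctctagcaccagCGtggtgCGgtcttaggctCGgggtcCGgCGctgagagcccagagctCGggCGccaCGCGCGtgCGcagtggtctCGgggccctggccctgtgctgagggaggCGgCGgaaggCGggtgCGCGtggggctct
Cd5 held CAGGTG on either strand at 2 places, 69 to 64 and 174 to 169 bases before the start, and AGGAAG at 2 places. Cd53 held a single TGTGGT at the far end of the window, 250 to 245 bases before the start. Of 32851 promoters of this length, 17.2% held the E-box form, 14.0% the RUNX motif, 9.99% the GATA motif and 29.5% the ETS motif. None of the marked motifs overlaps another. The Aqp11 promoter had 23 CG dinucleotides and 67.2% G and C, against 3 and 56.8% in Cd5, 2 and 45.2% in Cd53, and a median of 6 and 52.4% over all promoters. These matches describe the letters of the windows only.

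Cd27, a receptor of the tumour necrosis factor receptor family, was already high in every library. It was at 58.1 RPKM in NOD week 6.5, 49.7 in NOD week 4, 48.3 in B6 week 7 and 65.9 in B6 week 4, so the strains overlap and no library stood apart. The ratio of NOD week 6.5 to NOD week 4 was 1.17 (1.09 to 1.25). Cd70, which encodes its ligand, was listed at 0 in all 4 libraries, while Traf2, which encodes an adaptor of this receptor family, lay between 10.3 and 16.6 RPKM. Cd69, an early activation antigen that in the thymus is gained with receptor signalling, stayed low at 0.66 RPKM in NOD week 6.5, 0.43 in NOD week 4, 0.75 in B6 week 7 and 0.58 in B6 week 4. Its ratio between the NOD libraries was 1.53 (0.757 to 3.38, from 26 and 12 reads), and a difference was not detectable at this depth.

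**Figure D3:**
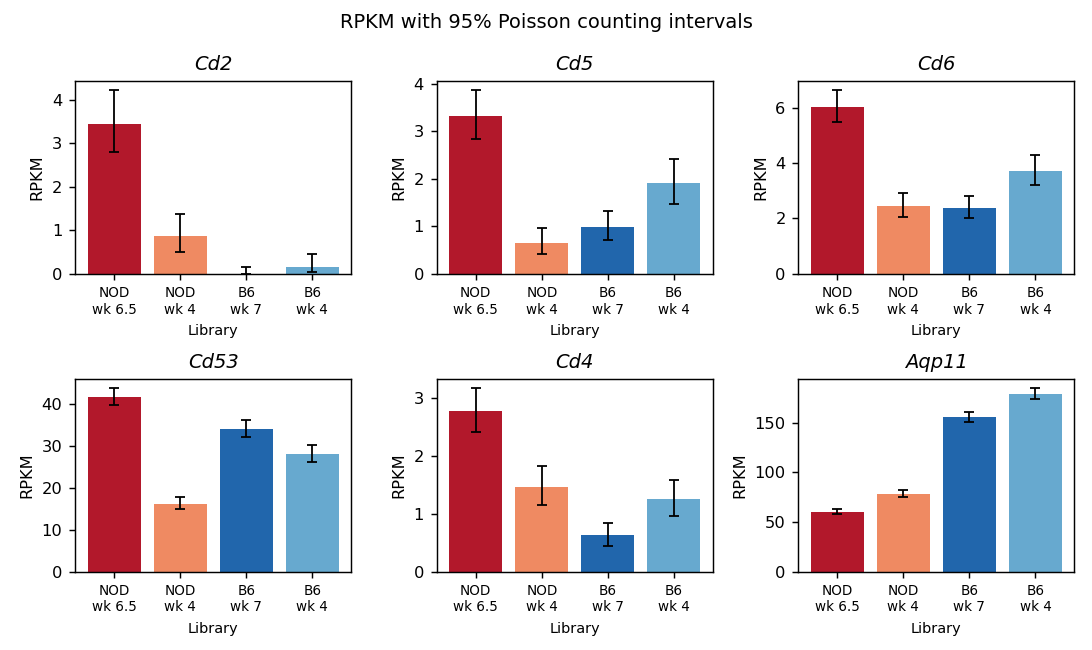
RPKM of Cd2, Cd5, Cd6, Cd53, Cd4 and Aqp11 in NOD week 6.5, NOD week 4, B6 week 7 and B6 week 4, with 95% Poisson counting intervals as bars. The first 5 genes are highest in NOD week 6.5, and Aqp11 is lower in both NOD libraries than in both B6 libraries.

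Similar ages, weeks 7 and 4, were compared in B6, where no member was 2-fold apart by the same rule. Between B6 week 7 and B6 week 4, 3 members were eligible, with 0 higher and 0 lower, where 0.14% of 8582 genes were 2-fold higher and 3.82% lower. With TMM scaling, 61 of all genes were higher and 69 lower, against 12 and 328 as deposited, so the split of all genes in this pair depends on the scaling. The median log2 ratio of the eligible genes was -0.38 as deposited and -0.05 with TMM. Cd4 was 0.504-fold (0.329 to 0.748), Cd5 0.516-fold (0.343 to 0.767) and Cd6 0.642-fold (0.518 to 0.800) in B6 week 7 relative to B6 week 4. Their log2 ratios of RPKM + 1 were -0.47, -0.55 and -0.48, near the all-gene median. Cd53 went the other way, at 1.21-fold (1.10 to 1.33), with a log2 ratio of 0.27 as deposited and 0.62 with TMM. Aqp11 was at 0.870-fold (0.833 to 0.908), a log2 ratio of -0.20 that became 0.16 with TMM.

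Set against each other, the age change in NOD exceeded that in B6 by a log2 difference of 1.94 for Cd5, 1.5 for Cd6, 1.46 for Cd2, 1.08 for Cd4 and 1.05 for Cd53, all on RPKM + 1. Cd27 differed by 0.66, and Cd8a, Cd8b1, Cd69 and Aqp11 by 0.19, 0.18, 0.07 and -0.17, as deposited. With TMM the differences of Cd53, Cd27, Cd69 and Aqp11 were 0.74, 0.35, -0.07 and -0.49. There is 1 library in each cell of this design, so the difference has no test. Among 9028 genes that reached an RPKM of 5 in some library, 5.06% differed 2-fold upwards and 0.377% downwards, and the median was 0.32. Of the 4 eligible members, Cd6 and Cd53 differed 2-fold upwards and 0 downwards. With TMM, 177 of all genes differed upwards and 109 downwards, against 457 and 34 as deposited, and 1 member, Cd6, was left. With an RPKM of 1 as the minimum, 5 members differed upwards and 0 downwards, where 4.61% and 0.486% of 12956 genes did. The NOD week 6.5 and NOD week 4 pair itself moved little with TMM: its median was -0.02, and the log2 ratios of Cd2, Cd5, Cd6 and Cd53 were 1.27, 1.40, 1.05 and 1.35.

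**Figure D4:**
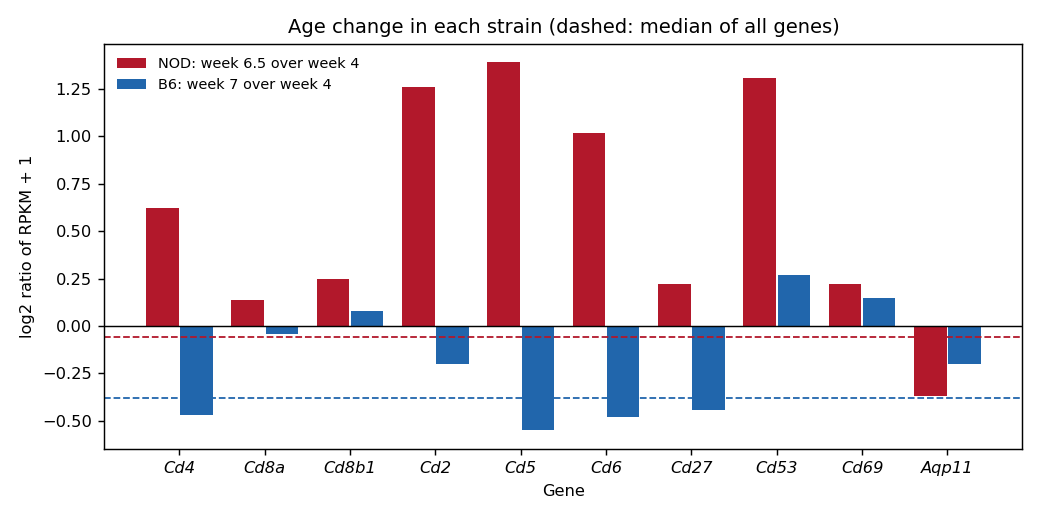
Log2 ratio of RPKM + 1 of each gene between the ages, for NOD (week 6.5 over week 4) and for B6 (week 7 over week 4). The dashed lines are the medians of all eligible genes, -0.06 in NOD and -0.38 in B6, and Cd2, Cd5, Cd6 and Cd53 lie above 1 in NOD, while no gene does in B6.

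The strain comparison asks whether these genes differ between NOD and B6 thymocytes over both ages, and Aqp11 was the member that did. Aqp11, an aquaporin of intracellular membranes known from the kidney, was at 60.2 RPKM in NOD week 6.5, 78.4 in NOD week 4, 156.0 in B6 week 7 and 179.3 in B6 week 4. The strains did not overlap, with means of 69.3 ± 12.8 RPKM for NOD and 168 ± 16.5 RPKM for B6 (SD, n = 2 each). Both NOD values likewise lay below both B6 values for 18.7% of 12413 genes. Aqp11 was lower in NOD than in B6 by 1.27 ± 0.26 on the log2 scale (SE, limma adjusted p = 0.0414), in 2 of 2 NOD libraries. In limma 1.59% of 12413 genes were called lower and 2.78% higher in NOD. The 2 libraries of a strain differ in age, and p-values rest on the spread between these libraries only, with 2 residual degrees of freedom per gene. In limma this spread was also drawn towards that of genes at a similar level, so the p-value of Aqp11 does not rest on its own spread alone. An exact permutation test of 2 against 2 libraries could not go below p = 0.333. Over the alternatives, the log2 difference of Aqp11 ranged from -1.46 to -1.08 and its adjusted p from 0.00534, with an age block, to 0.793. The call was lost without NOD week 6.5 (adjusted p = 0.793), without NOD week 4 (0.249), without a filter on low values (0.148), among genes with under 10% shared reads (0.0700) and from reads with a single place (0.154). The ratio of Aqp11 was 0.386 (0.366 to 0.407) between NOD week 6.5 and B6 week 7 and 0.437 (0.413 to 0.462) between NOD week 4 and B6 week 4. Of 10 other aquaporin genes none exceeded 0.11 RPKM in any library.

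The other members gave no call between the strains. At an unadjusted p under 0.05 in limma, 12.7% of all genes passed, and Cd4 beside Aqp11. Of the 10 members, 6 passed the filter on low values: Cd4, Cd5, Cd6, Cd27, Cd53 and Aqp11. Cd4 averaged 2.12 ± 0.933 RPKM over the NOD libraries and 0.940 ± 0.438 RPKM over the B6 libraries (SD, n = 2 each). Its log2 difference was 0.67 ± 0.26 (SE) with an adjusted p of 0.331 in limma, and it did not pass the test. Both NOD values lay above both B6 values for 25.3% of the 12413 genes. With an age block Cd4 had an adjusted p of 0.0234, and without NOD week 4 of 0.0239. Over all alternatives its adjusted p ranged from 0.0234 to 1.0. Cd5, Cd6, Cd27 and Cd53 overlapped between the strains, with log2 differences of 0.15, 0.30, -0.07 and -0.24 and limma adjusted p values from 0.762 to 0.933. Without NOD week 6.5 the difference of Cd5 was -0.55 and that of Cd6 -0.21. Cd2, Cd8a, Cd8b1 and Cd69 did not pass the filter. Cd2 was higher in both NOD libraries than in both B6 libraries, as were 22.4% of all genes above 0 in some library, and without a filter its log2 difference was 1.42 (adjusted p = 0.363 in limma).

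The strains were also set against each other by age class, with the later libraries 6.5 weeks old in NOD and 7 weeks in B6. Between NOD week 4 and B6 week 4, 3 members were eligible, with 0 higher and 1, Aqp11, lower, where 2.23% of 8863 genes were higher and 2.04% lower. Cd5 was at 0.337-fold (0.201 to 0.551) and Cd6 at 0.661-fold (0.526 to 0.832) in NOD week 4 relative to B6 week 4. Between NOD week 6.5 and B6 week 7, 4 members were eligible, with Cd6 higher and Aqp11 lower, where 5.91% of 8634 genes were higher and 1.61% lower. The ratio was 2.53 (2.10 to 3.05) for Cd6, 3.38 (2.40 to 4.85) for Cd5 and 4.41 (3.17 to 6.38) for Cd4. The median log2 ratio of all eligible genes was 0.28 in this pair and 0.04 with TMM, with 300 higher and 214 lower against 510 and 139 as deposited. With TMM the log2 ratio of Cd6 was 0.87 and it was no longer 2-fold apart. With an RPKM of 1 as the minimum, 4 of 7 members were higher and 1 lower in NOD week 6.5 than in B6 week 7, where 5.63% and 1.68% of 12643 genes were, and 0 of 6 were higher and 1 lower in NOD week 4 than in B6 week 4, where 2.58% and 2.16% of 12640 genes were. Cd4, Cd2 and Cd5 reach the minimum of 1 in the later pair, and Cd6 that of 5, through NOD week 6.5 alone, so their counts are a description too. These comparisons share libraries with those of the ages.

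Other genes of the checkpoint gave few differences between the NOD libraries or in limma. In NOD week 6.5 against B6 week 7, as deposited, Zap70, Plxnd1 and Lef1 were 2-fold higher (log2 ratios 1.71, 1.22 and 1.15). They were 1 of 12, 1 of 6 and 1 of 13 eligible genes of the first lists below, with 0 lower. Among all 8634 eligible genes of that pair 5.91% were higher. Their median log2 ratio was 0.28 as deposited and 0.04 with TMM, so calls near the threshold depend on the scaling. Of 12 genes of the pre-T-cell receptor complex and its proximal signalling, all were tested between the strains in limma with 0 called (1 at an unadjusted p under 0.05), and 0 of 12 were 2-fold apart between NOD week 6.5 and NOD week 4 (median log2 ratio -0.07). Lck, the kinase that binds the coreceptor tails, was at 495.3, 525.0, 360.5 and 493.4 RPKM in NOD week 6.5, NOD week 4, B6 week 7 and B6 week 4. Zap70, the kinase recruited to the phosphorylated CD3 chains, was at 17.99 RPKM in NOD week 6.5, 10.5 in NOD week 4, 4.82 in B6 week 7 and 10.3 in B6 week 4. Of 13 other genes gained at or after beta-selection, 6 were eligible between the NOD libraries and 0 were 2-fold apart (median -0.08), and 0 of the 8 tested between strains in limma were called (1, Plxnd1, at an unadjusted p under 0.05). Of 14 regulators of Cd4 and Cd8, 13 were tested between strains in limma with 0 called (1, Lef1, at an unadjusted p under 0.05), and 0 of 13 were 2-fold apart between the NOD libraries (median -0.13). Lef1, a factor of early thymocytes, was at 89.9 and 107.9 RPKM in NOD against 40.1 and 62.0 in B6 (adjusted p = 0.170 in limma). Zbtb7b, which encodes the factor ThPOK of the CD4 lineage, did not exceed 0.08 RPKM. Of 12 ligands and signalling partners of the members, 10 were tested between strains, with 0 higher and 1 lower: Cd72, a B-cell coreceptor reported as a ligand of CD5, had a log2 difference of -0.96 (limma adjusted p = 0.0158), at 0.18 and 0.16 RPKM in NOD against 1.41 and 1.16 in B6. It passed the filter through the B6 libraries alone, where it is high, and its adjusted p was 0.0607 without a filter and 0.0552 without B6 week 7, with a range over the alternatives from 5e-05 to 0.0607.

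**Figure D5:**
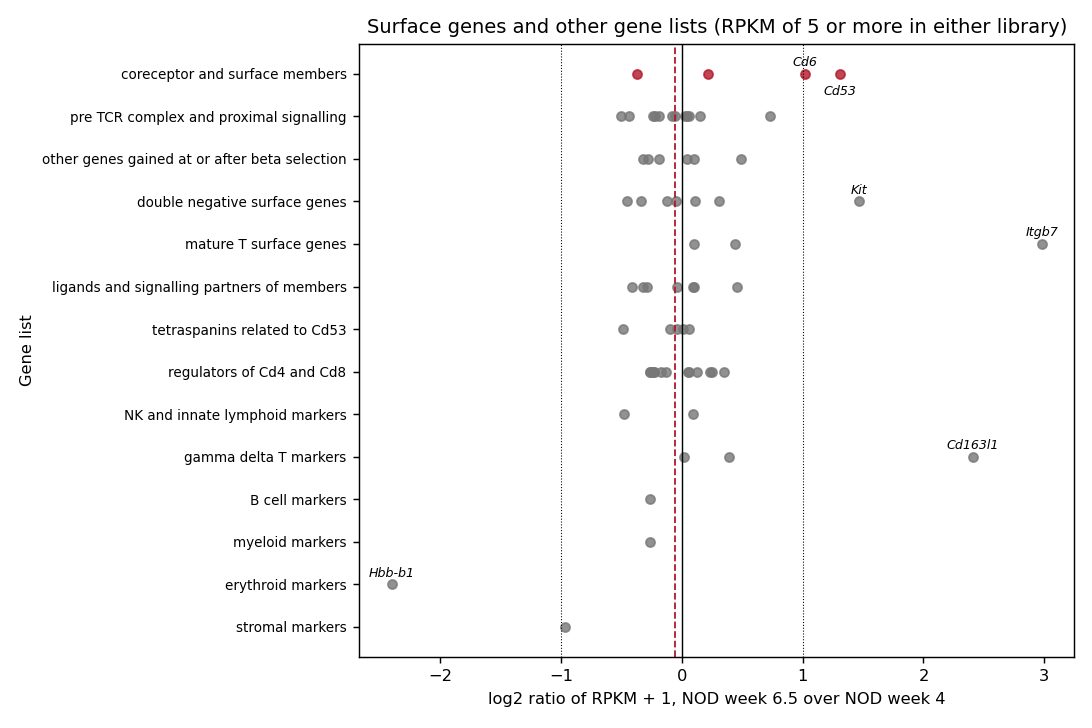
Log2 ratio of RPKM + 1 between NOD week 6.5 and NOD week 4 for each eligible gene of the gene lists (RPKM at least 5 in one of both libraries), 1 point per gene. Cd6 and Cd53 lie past the dotted 2-fold line, as do Kit, Itgb7 and Cd163l1 above and Hbb-b1 below, and the red dashed line is the median of all genes, -0.06.

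Among other surface genes, Kit and Itgb7 were 2-fold apart between the NOD libraries, where 0.682% of all eligible genes were 2-fold higher. Of 8 surface genes of the double negative stage, 7 were eligible and 1 was 2-fold higher, namely Kit, the stem cell factor receptor of early progenitors, at 19.4 RPKM in NOD week 6.5 and 6.33 in NOD week 4. Of 8 surface genes of mature T cells, 3 were eligible and 1 was 2-fold higher, namely Itgb7, an integrin chain, at 18.03 RPKM against 1.41. Between the strains 0 of the 7 tested genes of the first list and 0 of the 4 of the second were called in limma, with 0 and 2 (Cd52 and Ms4a4b, both lower in NOD) at an unadjusted p under 0.05. Ccr7, a chemokine receptor of mature thymocytes, was at 0.34 RPKM in NOD week 6.5 and 0.09 in NOD week 4.

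Of the summed markers of other cell types, only those of gamma-delta T cells were highest in NOD week 6.5. Most of that sum was 1 gene, Cd163l1. The summed RPKM of 10 markers of NK and innate lymphoid cells, which can also carry CD2, CD27 and CD69, was 89.0 in NOD week 6.5, 109.5 in NOD week 4, 132.6 in B6 week 7 and 145.7 in B6 week 4. Nearly all of it was Gzma and Nkg7, at 53.99 and 34.19 RPKM in NOD week 6.5. Of the NK receptor genes on the list, Klrd1, Klrk1 and Klrc1 were at 0 in NOD week 6.5, while Klrb1c was at 0.45 RPKM there, 0.20 in NOD week 4, 0.08 in B6 week 7 and 0.16 in B6 week 4. The summed RPKM of 5 gamma-delta T-cell markers was 90.6, 30.6, 21.0 and 35.1 in the same order, and 1 of the 3 eligible markers was 2-fold higher in NOD week 6.5 than in NOD week 4. That marker was Cd163l1 (E430002D04Rik in the files), a scavenger receptor cysteine-rich gene like Cd5 and Cd6, at 68.3 RPKM against 12.0. Blk was at 9.74 against 7.18, Maf at 1.37 against 0.35, Sox13 at 11.3 against 11.1 and Il23r was listed at 0 in both. In B6 week 7 and B6 week 4, Cd163l1 was at 7.11 and 6.71 RPKM, Blk at 4.01 and 3.58, and Maf at 0.62 and 0.39. Sox13 was at 9.24 and 24.4 there, so it was highest in B6 week 4, and Il23r was at 0.02 and 0. Every group lacks Rag1, and RNA of these marker genes does not show that gamma-delta T cells were present. The part of cells with these NK, innate lymphoid or gamma-delta markers in the higher Cd2, Cd5, Cd6 and Cd53 was not tested. The summed RPKM of 8 B-cell markers was 24.1, 29.1, 27.4 and 37.8, nearly all of it Cd79b, with Ms4a1 and Pax5 at 0 in every library. The summed RPKM of 7 myeloid markers was 22.5, 26.7, 21.8 and 24.8, nearly all of it Lyz2 with up to 31% shared reads. The 6 stromal and 4 erythroid markers summed to 13.4 and 2.21 RPKM in NOD week 6.5 and to 26.9 and 14.4 in NOD week 4. In B6 week 7 they summed to 24.25 and 6.46, and in B6 week 4 to 34.55 and 18.05. Nearly all of the stromal sum was Epcam, and most of the erythroid sum was Hbb-b1, with up to 92% shared reads.

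The genes whose 4 values were most like those of a member were found among 766 genes, by Euclidean distance between centred log2(RPKM + 1). Each distance rests on 4 libraries only. Nearest to Cd5 was Nfe2, a haematopoietic transcription factor gene, at a distance of 0.19, with 33.0 RPKM in NOD week 6.5, 11.5 in NOD week 4, 12.2 in B6 week 7 and 19.5 in B6 week 4, followed by Tes (0.27) and Depdc6 (0.29). Nearest to Cd53 were Angpt1 (0.08), which encodes a ligand of the receptor TIE2, Ddc (0.24) and Cdkn2c (0.37). Nearest to Cd6 were C920005C14Rik (0.16), Lcn4 (0.22) and Adamts10 (0.30), to Cd4 Arsi (0.13), 1700019H03Rik (0.13) and Sstr2 (0.14), and to Aqp11 Fer1l3 (0.05), Spata6 (0.12) and Metapl1 (0.17). Cd2 had no match nearer than 0.58, shared by Heyl and Lmo2, with Ptpn13 at 0.59. Lmo2, a progenitor transcription factor partner gene, was at 5.0 RPKM in NOD week 6.5, 0.44 in NOD week 4, 0.11 in B6 week 7 and 0.31 in B6 week 4.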

How the data were processed

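Polyadenylated RNA of flow-sorted thymocytes from Rag1-deficient mice was sequenced in 4 libraries. The aligner Bowtie 0.12.1 and the genome build mm9 are named in the submitters' processing notes, and the file names give a read length of 32 bases. Per the file headers, the authors deposited for each gene a model length, an RPKM value (its reads scaled to that length in kilobases and to the depth of the library) and the fraction of its reads that map to more than 1 place, called the shared share here and printed as a percent. The sources used here do not name the gene models, the counting program or the treatment of shared reads. The mm9 build is the C57BL/6J sequence, for NOD reads too.

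The files hold no counts. Depth was recovered from the smallest steps of RPKM among genes of at most 0.6 kilobases with no shared reads, as the depth at which RPKM times length (below 0.5) best gave whole reads: 97.6% to 100% of them came out whole to within 0.1 reads, where 20% would by chance. Read numbers of the members, 95% Poisson intervals of RPKM and 95% exact (Clopper-Pearson) intervals of ratios follow from that depth and cover counting error only, since PCR copies of a molecule can be counted more than once.

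Strains were tested in limma 3.58.1 (R 4.3.3) on log2(RPKM + 1), with an intensity trend, strain as the only term and Benjamini-Hochberg adjustment at 0.05, over all genes that reached an RPKM of 1 in 2 libraries or more. The steps were tested on simulated data. Each of the 4 pairs of libraries has 1 library per group and no test. For pairs, log2 ratios were taken of RPKM + 1, which understates the change of low genes, and genes 2-fold apart were counted among those that reached an RPKM of 5 in at least 1 of the pair. The 10 members and 14 other gene lists were chosen with earlier results of these data known. All members are named. Of the other lists, the genes 2-fold apart between NOD week 6.5 and NOD week 4 or B6 week 7, and those called by limma, were eligible for naming, at most 4 per list; any other named list gene illustrates a role and was chosen after its values were seen. Some list genes are not reported here by name. The genes most alike were the 3 per member nearest by Euclidean distance. The 135 list entries were matched by Entrez identifier through a RefSeq table of GRCm38.p6. Alternatives were another pseudocount, other filters, TMM (trimmed mean of M values, computed without weights) and quantile scaling, an age block, and each library left out. The part of RPKM from reads with a single place was added after the data were seen.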

Additional observations from a re-analysis of the deposited data

Results flagged for a closer look

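For 6 of the 10 genes the age change had opposite signs in the strains, higher in NOD week 6.5 than in NOD week 4 and lower in B6 week 7 than in B6 week 4. The difference between the changes (NOD minus B6, log2 of RPKM + 1) was 1.94 for Cd5, 1.5 for Cd6, 1.46 for Cd2, 1.08 for Cd4, 0.66 for Cd27 and 0.19 for Cd8a. With 1 library per strain and age the difference was not tested. The Cd2 value of B6 rests on 0 and 3 reads, and those of Cd8a on 12 reads or fewer per library, most of them shared in B6. The median of this difference over all genes with RPKM of 5 or more was 0.32, above the value of Cd8a. Of these 9028 genes 30.3% were likewise higher in the later NOD library and lower in the later B6 library, and of the 4 members among them 2 were, Cd6 and Cd27. With TMM the share of genes was 22.3%, the 6 signs held, and the log2 ratio of Cd27 between the B6 libraries was -0.09, against -0.44 as deposited. The ages of the later libraries differ too, 6.5 weeks in NOD and 7 weeks in B6.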

How the results depend on the processing

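Each strain and age has 1 library of 17040000 to 24080000 reads, so the differences between ages rest on single libraries, and members under about 30 reads (Cd8a, Cd8b1, Cd69, Cd2 in 3 libraries and Cd5 in NOD week 4) allow only wide intervals. With 1 library per strain and age, and no pairing of libraries in the labels, no paired analysis was possible. An age class block was fitted instead. Members 2-fold higher in NOD week 6.5 than in NOD week 4 numbered 2, then 4 with a minimum RPKM of 1 and 1 from reads with a single place. Against B6 week 7 they numbered 1, then 4 with that minimum and 0 with TMM, and for the difference between the age changes 2, then 5 and 1. Genes higher and lower in NOD in limma numbered 345 and 197, then 82 and 40 with no filter, 665 and 340 with an age block, 121 and 70 among genes with under 10% shared reads, and 130 and 68 from reads with a single place. Leaving out 1 library each gave 264 to 2919 higher and 146 to 452 lower, with the lone library assumed to vary like the others, and without B6 week 4 it was 2919 and 452. The member called lower, Aqp11, was not called with no filter, under 10% shared reads or single-place reads (0 members each), and 0 to 1 were called with a library left out. No member was called higher except 1, Cd4, with an age block, and 0 to 1 with a library left out. In the strain comparison, directions of members turned with a library left out: Cd5 ranged from -0.55 to 0.85, Cd6 from -0.21 to 0.82, Cd53 from -0.90 to 0.42 and Cd27 from -0.29 to 0.15, all short of the threshold. With TMM, Aqp11 turned to 0.16 between the B6 libraries and Cd69 to -0.07 in the difference between the age changes. Under another pseudocount, TMM or single-place reads, 110 log2 ratios of single members moved by less than their counting error and 10 by more, and 25 and 5 of the differences between age changes. Of those that moved by more, 6 ratios and 3 differences did so with TMM, and 4 and 2 with the other pseudocount.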
